A study of Mus musculus with 5 samples.

Results

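The genes described here encode the nuclear subunits of the oxidative phosphorylation system in the mouse hippocampus. They were chosen by symbol (Nduf with a, b, c, s or v and a number, Uqcr, Cox4 to Cox8, and Atp5), without pseudogene names and with at least 100 counts summed over the 5 libraries. Of 55385 genes counted, 95 carried such a symbol, 10 were left out for a pseudogene name and 8 for too few counts. The remaining 77 genes comprised 36 of complex I, 8 of complex III, 16 of complex IV and 17 of complex V. All 77 passed the filter on low counts and were among the 19768 genes tested.

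The libraries were made from total RNA of hippocampi of male mice of the C57/bl6 strain, aged 3 months. There was 1 untreated control library. After intraperitoneal kainic acid at 20 mg/kg, 1 library was made 1 h, 2 were made 4 h and 1 was made 8 h from seizure onset. Kainic acid is a glutamate receptor agonist that provokes seizures, and the study used only animals with generalized seizures. The control was not injected, so injection and kainic acid cannot be told apart, and it is not given whether a library came from a single mouse. The study followed gene expression through the hours after a seizure, and here each time was compared with the control.

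Oxidative phosphorylation couples the oxidation of NADH and succinate to the synthesis of ATP in the inner mitochondrial membrane. Complex I passes electrons from NADH to ubiquinone, complex III passes them to cytochrome c and complex IV to oxygen, while complex V, the ATP synthase, uses the proton gradient that the others build. A few core subunits are encoded in the mitochondrial genome and all others in the nucleus, and the supply of ATP by this system is what sustains ion pumping in active neurons.

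Genes took between 16612225 and 19109204 counts per library. Reads on no gene made up 24.7% in the control, 29% after 1 h, 33.1% and 25.3% in replicates 1 and 2 after 4 h, and 30.9% after 8 h. The seizure marker Fos was at 10.8 CPM (counts per 1e+06 counts of the library, scaled between libraries) in the control, 999 after 1 h, 519 and 70.4 after 4 h and 17.2 after 8 h. The summed level of 5 neuronal markers lay between 3326 and 3971 CPM in all libraries, while single ones differed more, with Rbfox3 at 119 CPM in the control and 82 and 82.4 at 4 h and Gad1 at 256, 515 and 379. The sum of 3 markers of CA1 pyramidal cells was lower in all treated libraries, 273 to 350.3 CPM against 383. Fibcd1 and Mpped1 were each lower in all of them, while Wfs1 was at 84.7 CPM in the control and 76.7 and 88.5 at 4 h. Markers of the choroid plexus, an epithelium next to the hippocampus, summed to 3995 CPM in the control, 1692 after 1 h, 29.2 and 4267 after 4 h and 3091 after 8 h, so that replicate 1 at 4 h stood apart. The summed oligodendrocyte markers were at 3667 and 4724 CPM and the astrocyte markers at 1714 and 1557 CPM in the 4 h replicates, against 3104 and 1117 CPM in the control. The 5 astrocyte markers had 4 h log2 fold changes from 0.03 to 1.32. Among them Gfap was at 221 CPM in the control and 596 and 510 at 4 h, and Gja1 at 195, 194 and 202 CPM. In such bulk tissue, fewer cells of a type and less RNA per cell cannot be told apart.

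No oxidative phosphorylation gene was called as different between control and any time after seizure onset. The quasi-likelihood test of edgeR with Benjamini-Hochberg adjustment called 0 of the 77 genes after 1 h, after 4 h and after 8 h, and the test of any time against control called 0 as well. An unadjusted p under 0.05 was reached by 0 of them at each of the times, against 478, 2291 and 892 of all 19768 genes. The same edgeR test called 0% of all genes after 1 h, 0.00506% after 4 h, 0% after 8 h and 0.0101% at any time, so a count of 0 alone says little about these genes. DESeq2 called 0.283%, 1.2% and 0.167% of all genes at 1, 4 and 8 h, and 0 of the oxidative phosphorylation genes, of which 72, 74 and 74 had an adjusted p. With limma-voom the count was 0 for them and for all genes. The spread behind these tests came from a single residual degree of freedom, the difference of the libraries at 4 h, shared across genes.

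More is said by the 95% intervals of the fitted differences. At 4 h, the interval of 72 of the 77 genes lay entirely within a 2-fold change of either direction and that of 42 within a 1.5-fold change. At 1 h these counts were 72 and 39, and at 8 h 71 and 25. The intervals at 1 h and 8 h compare 1 library with 1 control library and take their spread from the libraries at 4 h. For all genes tested, 37.8% had a 4 h interval within 2-fold and 9.57% within 1.5-fold. Since intervals narrow with the count, the 7749 genes of at least 20 CPM are a closer comparison. Of these 75.5% lay within 2-fold and 24.4% within 1.5-fold at 4 h, against 100% and 58.3% of the 72 oxidative phosphorylation genes of that level. Of the 828 short genes of at least 20 CPM, 87.1% and 32% did. The shares were 100% and 56.3% for 16 citric acid cycle genes, and 91.4% and 69.1% for 81 cytosolic ribosomal proteins. For 77 mitochondrial ribosomal proteins they were 88.3% and 9.09%. Narrow intervals were thus not particular to the oxidative phosphorylation genes. At 1 h, 86.88% and 26.46% of the genes of at least 20 CPM lay within 2-fold and 1.5-fold, against 100% and 54.17% of the 72. At 8 h the shares were 79.55% and 15.95%, against 98.61% and 34.72%.

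**Figure D1:**
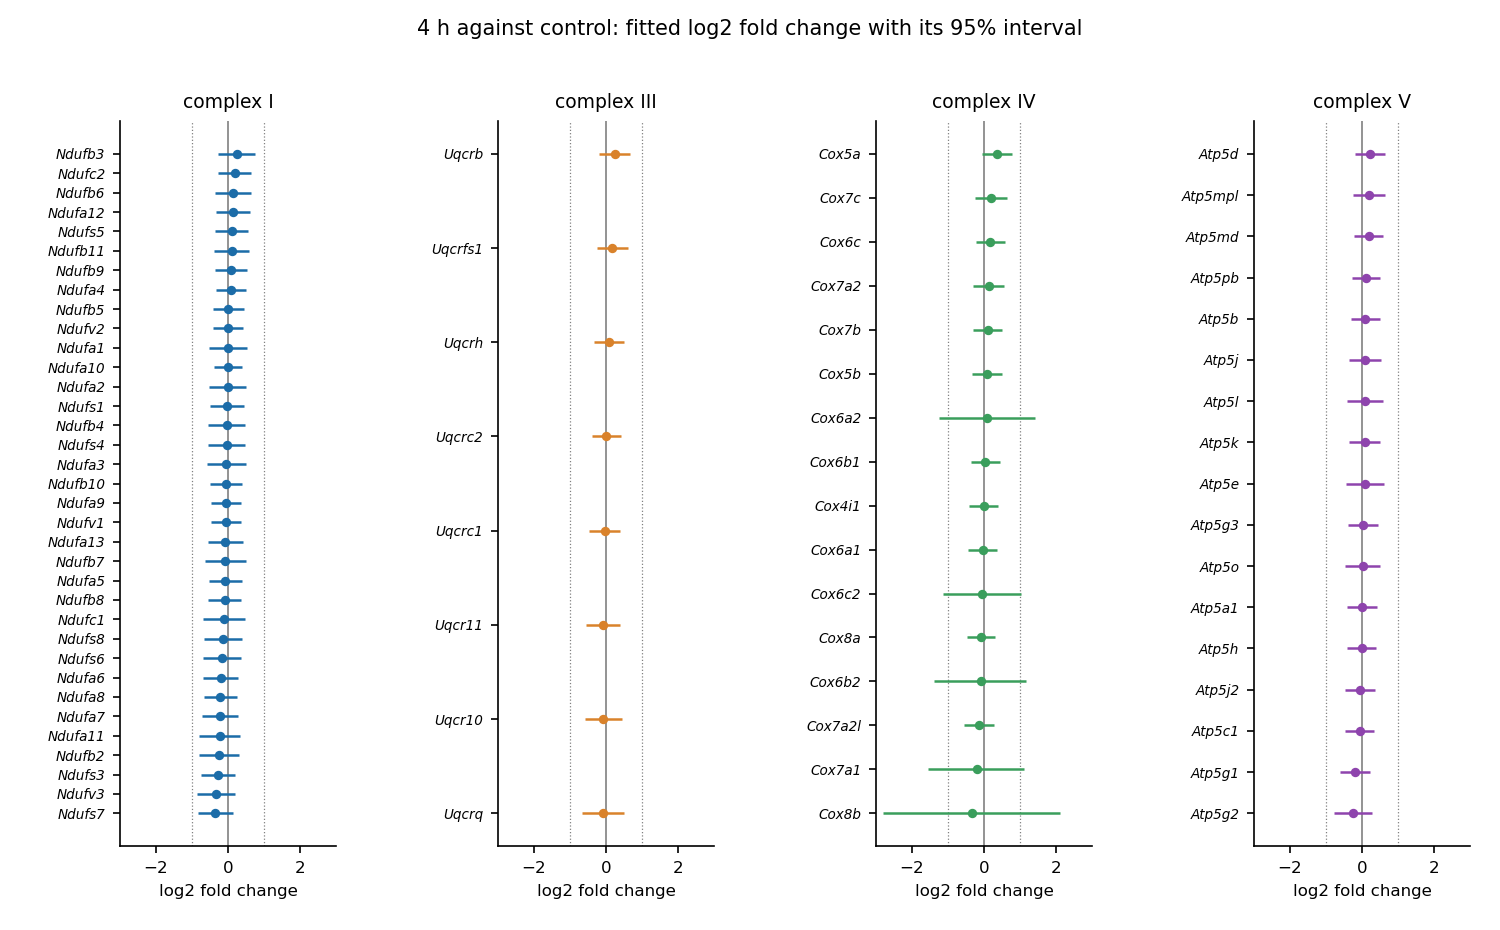
Fitted log2 fold change at 4 h against control (horizontal axis) for each gene (vertical axis) shown of the 4 complexes; points are the edgeR estimates from 1 control and 2 libraries at 4 h, lines their 95% intervals, and dotted lines mark a 2-fold change. All intervals include 0, and only 5 genes of complex IV, all under 4 CPM, have intervals that reach beyond 2-fold.

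The median log2 fold change of the 77 genes was -0.02 after 1 h, -0.01 after 4 h and -0.08 after 8 h, beside medians of 0.01 or less in size over all genes tested. At 8 h, 58 of the 77 (75.3%) were below the control, against 48.9% of all genes, 54.3% of genes of at least 20 CPM (median -0.02) and 57.2% of the short ones among them (median -0.03). With normalization factors from those short genes, a setting added after seeing the data, the 8 h median of the 77 genes was -0.03. At least 1.25-fold above control were 0 genes after 1 h, 1 after 4 h and 0 after 8 h, where 17.3%, 27.1% and 22.4% of all genes and 8.03%, 22.3% and 9.21% of the genes of at least 20 CPM were. At least 1.25-fold below control were 2, 3 and 3 genes, where 17%, 23% and 18.4% of all genes and 3.01%, 15.6% and 12.9% of those of at least 20 CPM were. Of the 72 members of that level, 0%, 2.78% and 1.39% were. The 4 h gene above was Cox5a. Those below at 4 h were Ndufs7, Ndufv3 and the scarce Cox8b. Among the 72 genes of at least 20 CPM, the size of the difference without its sign had a median of 0.05 after 1 h, 0.09 after 4 h and 0.10 after 8 h on the log2 scale. Over all genes of at least 20 CPM these medians were 0.10, 0.24 and 0.16, and over the 828 of them whose main transcript was no longer than 1500 nt, as most of the members are, they were 0.08, 0.17 and 0.13.

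**Figure D2:**
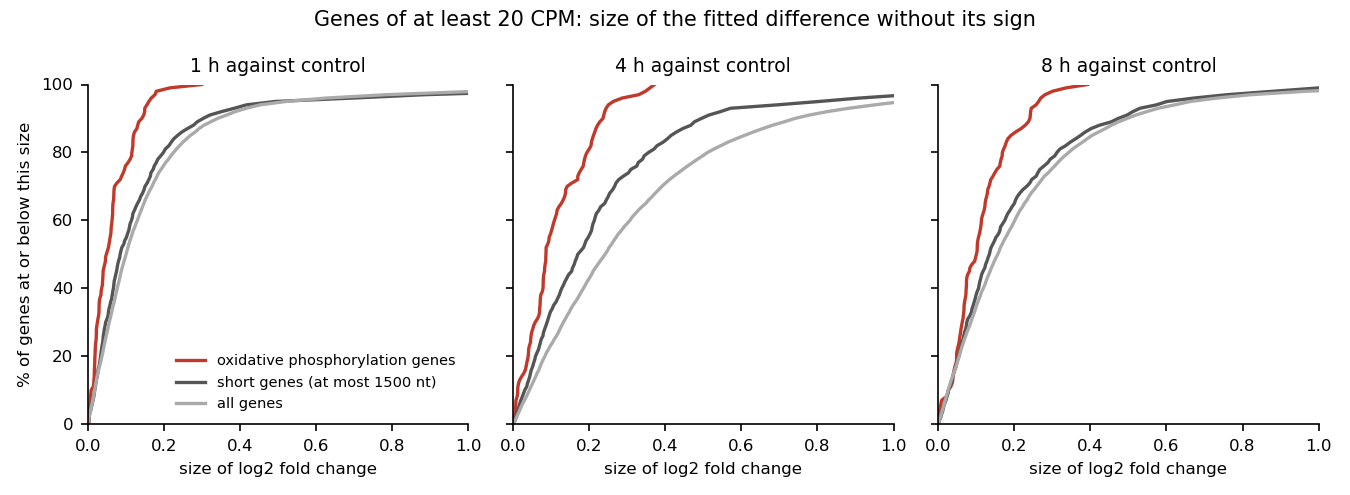
Cumulative share of genes (vertical axis, %) by the size of the fitted log2 fold change without its sign (horizontal axis) at 1, 4 and 8 h, for 72 oxidative phosphorylation genes, 828 short genes and all 7749 genes of at least 20 CPM. The curve of the oxidative phosphorylation genes reaches 100% at 0.30, 0.37 and 0.39, where the others still lie below it.

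The 77 genes together took 0.859% of the gene counts in the control, 0.815% after 1 h, 0.746% and 0.852% in replicates 1 and 2 after 4 h, and 0.822% after 8 h. Replicate 2 was thus close to the control and replicate 1 was the lowest library, so that the libraries of the same time lay on either end of the treated range. The share of reads on no gene ran the other way, except between the libraries at 1 h (29%) and 8 h (30.9%). It was highest in replicate 1 at 4 h (33.1%) and lowest in the control (24.7%) and replicate 2 (25.3%), and its part was not tested. Over the 5 libraries, the highest level of a gene was a median of 1.18 times its lowest among the 72 genes of at least 20 CPM, and under 1.25 times for 59 of them. After normalization, the summed levels of the 77 genes were 8239, 8227, 8084, 8614 and 7790 CPM in the same order.

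Summed over its genes and without correction for length, complex V had the highest level of the 4 complexes and complex III the lowest. Such sums also depend on the number and length of the genes. Per kilobase of the main transcript, the order differed among genes of at least 20 CPM. The medians were 65 CPM per kb in complex I, 116 in complex III, 174 in complex IV and 146 in complex V. The complex V genes summed to 3417 CPM in the control, 3441 after 1 h, 3449 and 3617 after 4 h and 3246 after 8 h. Complex I summed to 2458, 2420, 2260, 2505 and 2303 CPM, complex IV to 1567, 1556, 1600, 1647 and 1485 CPM and complex III to 797, 810, 774, 845 and 757 CPM in the same order. The proportions of complexes III and IV to complex V were thus nearly constant, and that of complex I varied more. The sum of complex IV was 0.459 of that of complex V in the control and between 0.452 and 0.464 afterwards, and the sum of complex III was 0.233 in the control and between 0.224 and 0.235 afterwards. The sum of complex I was 0.719 of that of complex V in the control, 0.703 after 1 h, 0.655 and 0.693 after 4 h and 0.709 after 8 h. Its lowest value was that of replicate 1 at 4 h, and the distance between the 4 h replicates, 0.655 and 0.693, was larger than that between replicate 2 and the control. Relative to complex IV, the sum of complex I was 1.57 in the control, 1.56 after 1 h, 1.41 and 1.52 after 4 h and 1.55 after 8 h.

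The medians by complex lay close to each other too. For complex I the median log2 fold change was -0.03 after 1 h, -0.05 after 4 h and -0.11 after 8 h. For complex III it was -0.01, -0.01 and -0.06, for complex IV -0.05, 0.01 and -0.11, and for complex V 0.01, 0.08 and -0.07. These values moved with the scaling: with factors from short abundant genes the 8 h medians were -0.05, -0.01, -0.06 and -0.01 for complexes I, III, IV and V, and with library size alone the 4 h medians were -0.17, -0.14, -0.11 and -0.04, where the median of all genes was -0.11. At 4 h the sign depended on the library for 3 of the complexes. In replicate 1 the medians of the log2 ratio to control were -0.13 for complex I, -0.08 for complex III, 0.01 for complex IV and -0.03 for complex V, and in replicate 2 they were 0.03, 0.06, 0.05 and 0.11. The medians for complex IV include its scarce genes of under 4 CPM. Its 11 genes of at least 20 CPM had median log2 fold changes of -0.01, 0.09 and -0.06 at 1, 4 and 8 h. In replicates 1 and 2 at 4 h, the median ratios of these 11 genes were 0.05 and 0.12. Of the 77 genes, 65 were lower in replicate 1 than in replicate 2 (84.4%, against 48.9% of all genes tested and 63.9% of the short genes of at least 20 CPM), with a median log2 ratio of -0.12. Of the 10 marker lists, that of the choroid plexus differed most between these replicates. All 5 oligodendrocyte markers were also lower in replicate 1 (median log2 ratio -0.35), and the 5 blood markers were higher (median 0.73). The 6 genes used to check the treatment summed to 7859 CPM in replicate 1 and 2700 in replicate 2, and reads on no gene made up 33.1% and 25.3%. The part of these differences in the ratios was not tested.

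Both 4 h libraries lay below the control for 20 genes (26% of them, against 38.3% of all genes tested) and above it for 24 (31.2%, against 38.1%). All 4 kainic acid libraries lay below the control for 18 genes (23.4%, against 20.6%) and above it for 11 (14.3%, against 20.6%). By complex, all 4 were below for 12 of 36 genes of complex I, 0 of 8 of complex III, 3 of 16 of complex IV and 3 of 17 of complex V. These counts share 1 control library, so a high or low value there moves all of them together.

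**Figure D3:**
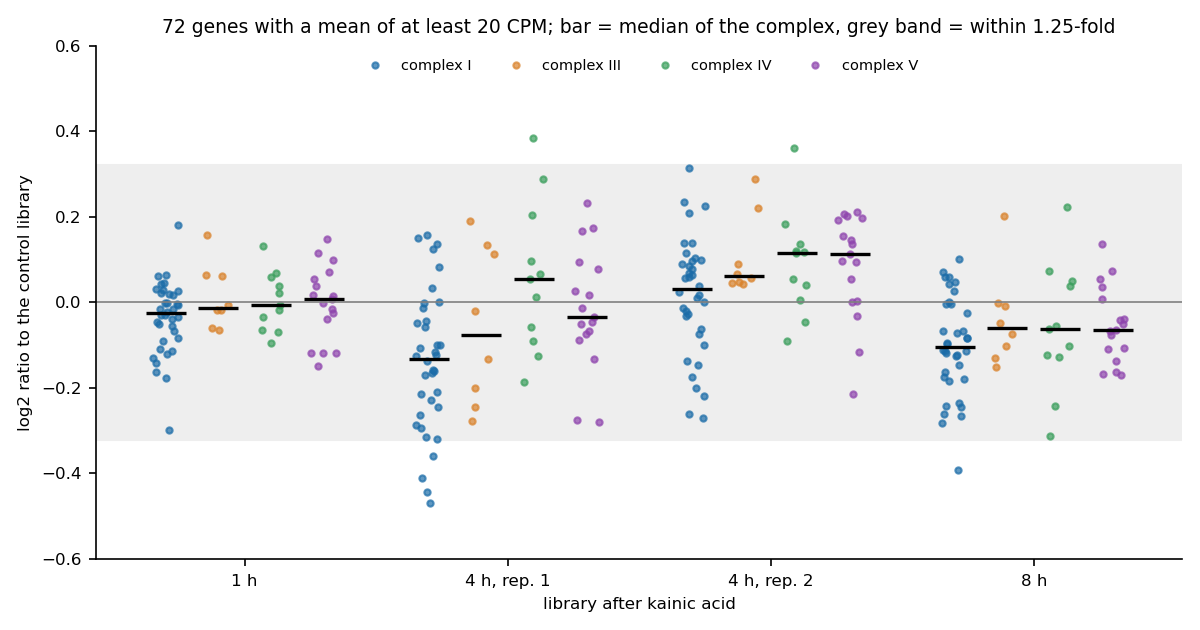
Log2 ratio to the control library (vertical axis) of the 72 genes with a mean of at least 20 CPM, in each library after kainic acid (horizontal axis), coloured by complex; bars are the medians of a complex and the grey band is a 1.25-fold change. Replicate 1 at 4 h has its complex I median at -0.13 and replicate 2 at 0.03, and few genes leave the band in any library.

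Complex I was represented by genes of the Ndufa, Ndufb, Ndufc, Ndufs and Ndufv series, among them Ndufa1 to Ndufa13, Ndufb2 to Ndufb11, Ndufc1, Ndufc2 and Ndufv1 to Ndufv3. Per kilobase of the main transcript, 36 levels spanned from 19.9 CPM per kb for Ndufc1 to 256 for Ndufa4, with a median of 65. Ndufa4, first described in complex I and now assigned to complex IV, stood clear of the rest (239 to 276 CPM per kb over the 5 libraries). It lies at chr6:11900292-11907497 (GRCm38, GENCODE M21) and had 153 CPM in the control, 159.9 after 1 h, 153 and 168 after 4 h and 146 after 8 h. The ranges of further abundant genes, Ndufb10 (99.3 to 112 CPM per kb) and Ndufa3 (91.6 to 116), overlapped, so their order is not resolved. The related Ndufa4l2 had 58 counts in all and was not a member.

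The core subunits of complex I encoded in the nucleus fall into an NADH-oxidizing module (Ndufs1, Ndufv1 and Ndufv2) and a quinone-reducing module, to which Ndufs3, Ndufs7 and Ndufs8 belong. The NADH module summed to 435 CPM in the control, 449.7 after 1 h, 402 and 452 after 4 h and 425 after 8 h, and the control lay within the range of the treated libraries. In the quinone module, the lowest log2 fold change at 4 h was that of Ndufs7 (chr10:80249121-80256794), an iron-sulfur subunit beside the quinone site, with 50.5 CPM in the control, 47.7 after 1 h, 37.1 and 41.9 after 4 h and 41.5 after 8 h. This was also the lowest of complex I, a log2 fold change of -0.35 (SE 0.20, 95% interval -0.85 to 0.14, adjusted p 0.536 with edgeR). Ndufs3 of the same module, chosen after its values were seen, had 62.9 CPM in the control and then 60.9, 49, 54.7 and 55.3 CPM, a log2 fold change of -0.28 at 4 h with an interval from -0.74 to 0.18. Ndufs8 had 59.4 CPM in the control, 58.5 after 1 h, 47.8 and 60.1 after 4 h and 49.5 after 8 h, with its 4 h libraries on both sides of the control. For Ndufs7 and Ndufs3 the 4 h libraries lay below the control and differed from each other by less than from it.

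Among the accessory subunits, Ndufv3 (chr17:31520115-31531331), a small partner of the NADH module, had the lowest values at 1, 4 and 8 h. Its level was 52.2 CPM in the control, 42.4 after 1 h, 37.7 and 44.8 after 4 h and 39.7 after 8 h, with log2 fold changes of -0.30, -0.34 and -0.39 and SEs of 0.24, 0.21 and 0.24 (edgeR adjusted p 1, 0.572 and 1). All treated libraries were below the control, and at 4 h the interval reached from -0.86 to 0.18. The highest values belonged to subunits of the membrane arm and to Ndufs4. Ndufb6 was at 35.1 CPM in the control and 39.8 at 1 h, a log2 fold change of 0.18, and then at 39, 38.7 and 36.6 CPM. Ndufb3 had 37.9 CPM in the control, 38.6 after 1 h, 42.3 and 47.2 after 4 h and 37.9 after 8 h, and its 4 h log2 fold change was 0.24 (interval -0.27 to 0.75). Ndufs4, an accessory subunit near the NADH module, had 47.1, 46.5, 41.8, 49.7 and 50.5 CPM in the same order, and its 4 h libraries lay on both sides of the control. The remaining genes of complex I had 4 h log2 fold changes between -0.25 and 0.19.

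Complex III comprised the core proteins Uqcrc1 and Uqcrc2, the Rieske iron-sulfur protein Uqcrfs1, and Uqcrb, Uqcrh, Uqcrq, Uqcr10 and Uqcr11. Uqcrh, the hinge protein next to cytochrome c1, was the most abundant per length at 200.4 CPM per kb (range 183 to 213) and lies at chr4:116066965-116075071. It had 107 CPM in the control, 112 after 1 h, 116 and 112 after 4 h and 100.1 after 8 h. Uqcrb had the highest log2 fold change of the complex at every time, 0.16, 0.24 and 0.20, with 59.7 CPM in the control, 66.6 after 1 h, 68.1 and 72.9 after 4 h and 68.7 after 8 h. It was the only gene of complex III for which all treated libraries lay above the control, and its intervals included 0 (-0.20 to 0.68 at 4 h). Of the 100-base stretches of its main transcript, 15.8% also occur in transcripts of other genes. The lowest values were those of Uqcr11 at 1 h (-0.06, 77.4 CPM in the control, then 74.1, 67.4, 79.8 and 73.6), of Uqcrq at 4 h (-0.08, 42.3 CPM, then 40.6, 34.9, 45 and 42) and of Uqcrc1 at 8 h (-0.15, 174.7 CPM, then 174, 159, 180.4 and 157). For Uqcr11 and Uqcrq the libraries at 4 h lay on both sides of the control.

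Complex IV held both abundant subunits and 5 scarce genes of under 4 CPM. Cox4i1, the regulatory subunit with an ATP site, led with 427 CPM per kb (range 398 to 448) and lies at chr8:120668222-120674207. Its level was 324 CPM in the control, 323 after 1 h, 312 and 334 after 4 h and 297 after 8 h. Cox6c (range 308 to 354 CPM per kb), Cox8a (278 to 328) and Cox6a1 (263 to 288) followed. The range of Cox8a overlapped both others, so their order is not resolved. By mean level, Cox6b1, Cox7c, Cox7a2, Cox5b, Cox5a and Cox7b came next, and their ranges were not compared. Cox7a2l, a factor of supercomplex assembly, had 96.6 CPM in the control, 94.3 after 1 h, 84.9 and 90.7 after 4 h and 77.8 after 8 h.

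Cox5a, a matrix-side subunit, had the highest log2 fold change of complex IV at each time. It lies at chr9:57521274-57532426 and was at 70.7 CPM in the control, 77.4 after 1 h, 92.2 and 90.8 after 4 h and 82.5 after 8 h. The libraries at 4 h were nearly equal and both above all others. The 4 h log2 fold change was 0.37 (SE 0.17, interval -0.05 to 0.79), the largest of the 72 genes of at least 20 CPM in the upward direction, with an unadjusted p of 0.0716 and an adjusted p of 0.466 from edgeR. The partner subunit Cox5b, also chosen after its values were seen, had 121, 123, 126, 132 and 126 CPM in the same order.

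Several subunits of complex IV exist as a ubiquitous form and a form known from heart, skeletal muscle or testis. In these hippocampi the ubiquitous form carried nearly all transcripts. Per length, Cox6a1 was at 276 and its muscle form Cox6a2 at 3.33 CPM per kb, Cox6b1 was at 217 and its testis form Cox6b2 at 2.6, Cox7a2 was at 154 and its muscle form Cox7a1 at 2.82, and Cox8a was at 306 and its muscle form Cox8b at 3.11. The hypoxia-linked Cox4i2 had 52 counts in all and the testis form Cox8c 0 counts, so neither was a member. Of the ubiquitous forms, Cox6a1 was at 164, 156, 154, 164 and 150.4 CPM, Cox6b1 at 136, 129.8, 137, 141 and 127 CPM, Cox7a2 at 96.2, 101, 101, 109 and 101 CPM and Cox8a at 181, 169, 165, 175 and 153 CPM in the order control, 1 h, 4 h (replicates 1 and 2) and 8 h. Cox8a was below the control in all treated libraries, with a log2 fold change of -0.24 at 8 h (interval -0.70 to 0.22), the lowest of these 4 forms.

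The muscle and testis forms rested on few counts. Cox8b had 33 counts in the control, 7 after 1 h, 6 and 42 after 4 h and 17 after 8 h, or 1.66, 0.398, 0.356, 2.22 and 0.97 CPM. The exact Poisson 95% intervals, which cover counting error only, were 1.14 to 2.33 CPM in the control and 0.16 to 0.821 at 1 h. Its log2 fold changes of -1.80 at 1 h (interval -5.35 to 1.24) and -0.33 at 4 h were the lowest of complex IV, and its ratio between the 4 h replicates, -2.35 on the log2 scale, was the lowest of all 77 genes. Replicate 1 at 4 h and the library at 1 h, the lowest in Cox8b, were also the lowest in the summed choroid plexus markers. Their order, and that of the control and replicate 2 at 4 h, is not resolved in Cox8b since the counting intervals overlap, and the part of these markers was not tested. Cox6a2 had 2.46, 2.28, 3.27, 1.96 and 1.37 CPM, with the highest ratio between the 4 h replicates (0.71) and the lowest log2 fold change of complex IV at 8 h (-0.80, interval -2.43 to 0.74). Cox7a1 was at 1.31, 0.967, 1.13, 1.11 and 1.03 CPM and Cox6b2 at 1.56, 1.31, 1.31, 1.59 and 1.43 CPM, and their counting intervals overlapped between all libraries. Of 5 muscle markers, summing to 13.8 to 33 CPM with the highest sum in replicate 1 at 4 h, Ckm and Mb were at 0.171 CPM or less in every library, Acta1 was at 3.39 to 8.33 CPM and Myh7 at 5.46 to 9.94 CPM. Tnnt1 was at 1.56 CPM in the control and 24 and 5.39 CPM at 4 h, with an adjusted p of 0.0158 from DESeq2 and no call with edgeR. Cox6c2, annotated as a processed pseudogene, was at 2.76, 2.22, 2.79, 2.54 and 3.08 CPM, and 34.8% of its sequence is shared with Cox6c, so its counts are uncertain.

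**Figure D4:**
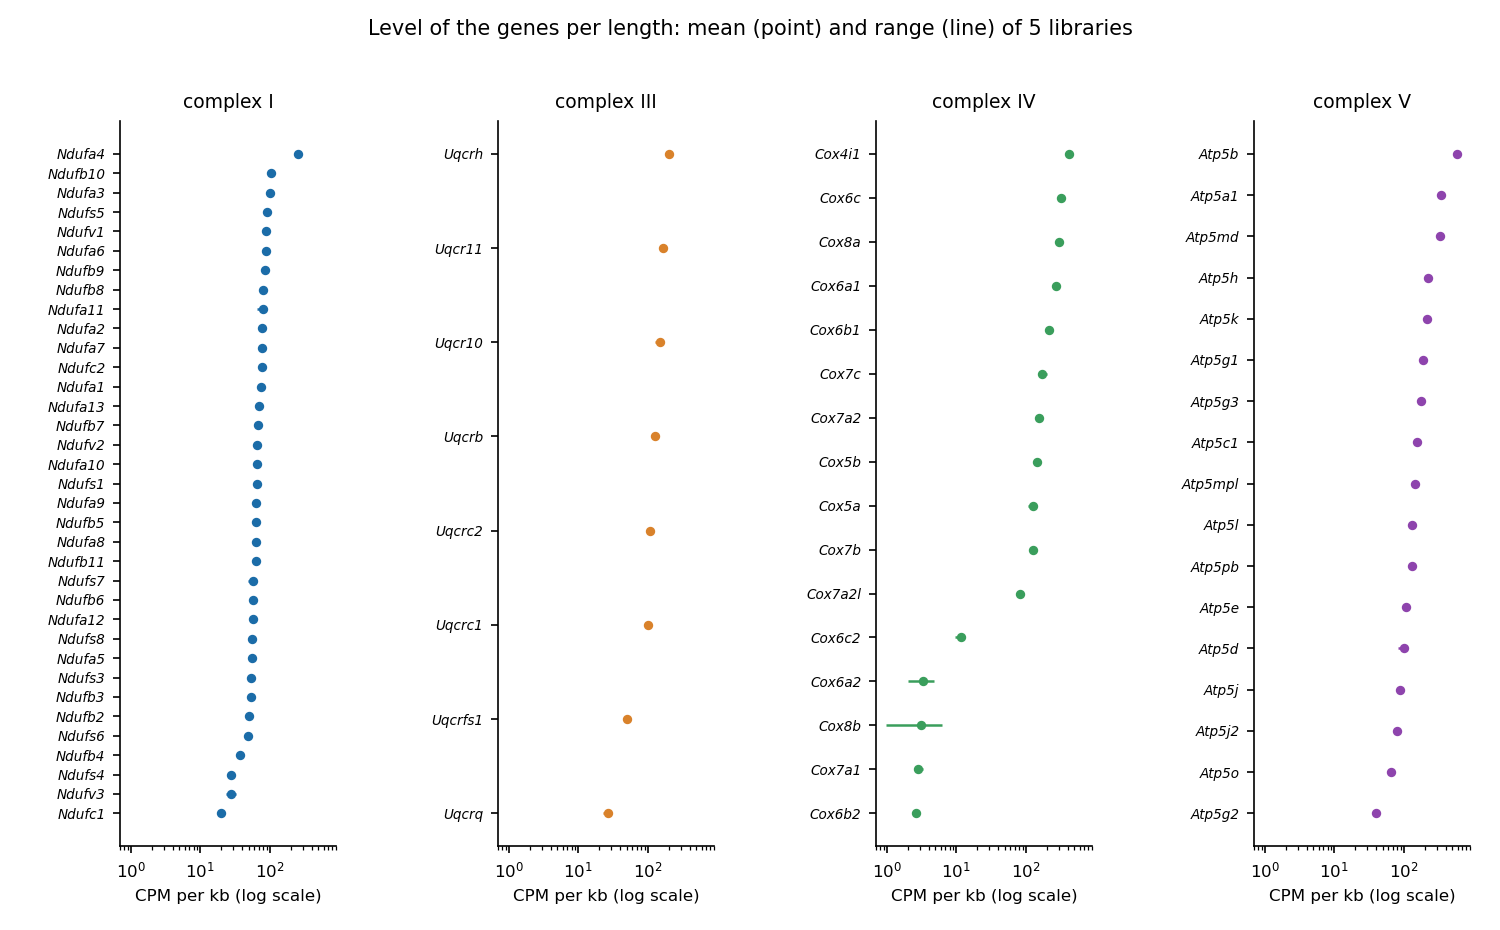
Level of each gene in CPM per kilobase of its main transcript (horizontal axis, log scale) in the 4 complexes; points are means and lines the range over the 5 libraries. The 5 lowest genes of complex IV lie between 2.6 and 11.6, under the lowest of its other genes at 82.6.

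The complex V genes were those of the catalytic head F1 (Atp5a1, Atp5b, Atp5c1, Atp5d and Atp5e), the membrane rotor (Atp5g1, Atp5g2 and Atp5g3), the peripheral stalk (Atp5pb, Atp5h, Atp5j and Atp5o) and the small membrane subunits (Atp5k, Atp5j2, Atp5l, Atp5md and Atp5mpl). The catalytic subunit Atp5b, at chr10:128083273-128090391, had the highest level of all 77 genes, 579 CPM per kb (range 542 to 607). It was at 1087 CPM in the control, 1101 after 1 h, 1159.9 and 1162 after 4 h and 1038 after 8 h. Its partner in the head, Atp5a1, was at 864, 874, 834, 898 and 802 CPM, and per length its range of 324 to 363 CPM per kb overlapped that of the much shorter Atp5md (305 to 364).

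Within the head, Atp5d had the highest log2 fold change of complex V at 1 h (0.15) and 4 h (0.21). It lies at chr10:80138632-80145818 and had 87.5 CPM in the control, 97 after 1 h, 102.8 and 100.3 after 4 h and 78.1 after 8 h, and its 4 h interval was -0.20 to 0.63. All 5 genes of the head were below the control at 8 h. The lowest values of complex V at 8 h were equal at -0.17 for the membrane subunit Atp5j2 and the head subunit Atp5c1, and Atp5d was at -0.16. Atp5j2 had 80.7, 74.4, 76.7, 79 and 71.8 CPM and Atp5c1 192, 187, 176, 192 and 171 CPM. The membrane subunit Atp5k was highest at 8 h (0.14), with 77.1, 77, 78.1, 84.8 and 84.7 CPM.

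The c subunit of the rotor is encoded by 3 genes that differ in their import sequence and give the same mature protein. Per length, Atp5g1 was at 189, Atp5g3 at 175 and Atp5g2 at 40.2 CPM per kb, and the ranges of Atp5g1 (169.8 to 206) and Atp5g3 (163 to 192) overlapped. Atp5g1 had 123 CPM in the control, 111 after 1 h, 101 and 113 after 4 h and 114 after 8 h, with the lowest log2 fold change of complex V at 1 h (-0.15). Atp5g2 had 32.1, 29.5, 26.5, 27.6 and 31.2 CPM, with the lowest at 4 h (-0.24, interval -0.77 to 0.28). For both, all treated libraries lay below the control. Atp5g3 had 128, 118, 125.1, 136.8 and 116 CPM, and its 4 h libraries lay on both sides of the control. The rotor genes summed to 283 CPM in the control, 258 after 1 h, 253 and 278 after 4 h and 262 after 8 h, while the head summed to 2276, 2304, 2315, 2404 and 2131 CPM.

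Some of these genes have near copies in the genome, and reads from them may be split or discarded. Of the 77, 21 shared stretches of 100 bases of their main transcript with transcripts of other genes, and 9 shared over 25% of them. Atp5g2 shared 86.4%, Atp5l 61.3%, Atp5g1 57.3% and Cox7c 44.4%, mostly with unnamed gene models. Without the 21 genes, the median log2 fold change of the remaining 56 was -0.02 after 1 h, -0.03 after 4 h and -0.10 after 8 h.

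The differences between the genes were small and went with base composition: genes of lower GC content had higher ratios to control. The GC content of the main transcripts ran from 42% (Cox7b, Ndufv2) to 61.1% (Atp5d), with a median of 51.9%. Over the 72 genes of at least 20 CPM, Pearson's r between GC content and the log2 ratio to control was -0.47 in replicate 1 and -0.44 in replicate 2 at 4 h, and with the fitted difference it was -0.40 at 1 h and -0.43 at 8 h. These are descriptions across genes, which are not independent replicates, and all 4 ratios have the same control library in common. Over all 77 genes, the 26 with at most 49.9% GC had a median 4 h log2 fold change of 0.08 and 7 of them were below 0, and the 26 genes with over 54.5% GC had a median of -0.08 and 22 of them were below 0. By complex, r with the 4 h fitted difference was -0.52 in complex I, -0.72 in complex III, -0.55 in complex IV and -0.28 in complex V. Among 7748 genes of at least 20 CPM the 4 h medians were 0.08 and -0.11 in the same bins, with r at -0.01 at 1 h, -0.12 at 4 h and -0.07 at 8 h. Among the 828 short ones the 4 h medians were 0.09 and -0.02, with r at -0.01, -0.04 and -0.12 in the same order. Spearman's rho at 4 h was -0.51 for the 72 members, -0.19 for the 7748 genes and -0.15 for the short ones. Of the same 77 genes, 11 of the 26 low and 23 of the 26 high GC genes were below the control in replicate 1, and in replicate 2 they were 3 and 11. With log2 length, r at 4 h was -0.13. The part of base composition in the differences was not tested.

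**Figure D5:**
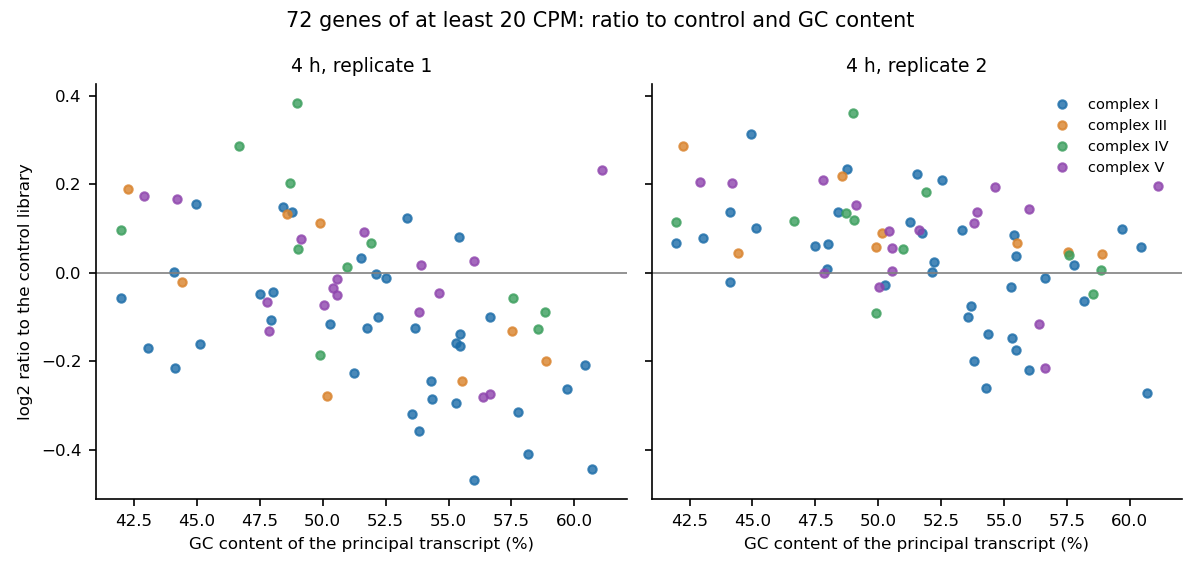
GC content of the main transcript (horizontal axis, %) against the log2 ratio to the control library (vertical axis) in replicates 1 and 2 at 4 h, for 72 genes of at least 20 CPM coloured by complex. The points slope downward from left to right in both panels, with r at -0.47 and -0.44, and lie higher in replicate 2.

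Nuclear subunits of all 4 complexes are known as targets of the nuclear respiratory factors NRF1 and GABPA, and YY1 is known at some of them. RefSeq promoters (GRCm38.p6, 250 bases before to 50 after the start) were found for 64 of the 77 genes. A match on either strand to GCGCANGCG, the centre of the NRF1 motif, stood in 28.1% of them, against 17.7% of 6147 promoters of genes of at least 20 CPM and 7.03% of all 27025. CCGGAAG, read by GABPA, stood in 23.4%, 20.2% and 9.93%, and AAGATGGCG, read by YY1, in 10.9%, 4.1% and 1.64%. GGGCGG, read by Sp1, stood in 39.1%, 73.1% and 38.2%. By complex, NRF1 or GABPA letters stood in 12 of 32 promoters of complex I, 3 of 5 of complex III, 3 of 12 of complex IV and 10 of 15 of complex V. Such letters stood in 43.8% of all 64, against 34% of the promoters of genes of at least 20 CPM and 15.5% of all, so that complex I with 37.5% and complex IV with 25% were near or under the share of abundant genes. The NRF1 letters can match on both strands at once. Such a match is a description of the letters only.

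The sequences below show 1 match for the most abundant gene of each complex with NRF1 letters and with GABPA letters. They also show the YY1 letters of Ndufs7, the gene of complex I with the lowest 4 h value. Cox6a1 has further NRF1 matches and Cox8a a further GABPA match, and the one nearest the start is shown. They read 5′ to 3′ on the strand of the gene, with the match in capitals (on the opposite strand it reads as its reverse complement).
Ndufb10, NRF1, chr17:24724407-24724435, minus strand: tcacctttctGCGCAGGCGtagaggtccc
Uqcr11, NRF1, chr10:80406808-80406836, minus strand: atcgccttcaCGCATGCGCtatacgtctg
Cox6a1, NRF1, chr5:115349057-115349085, minus strand: cggataaagtGCGCAGGCGctggagttcc
Atp5h, NRF1, chr11:115420042-115420070, minus strand: gaccccgacgGCGCAGGCGccgcgcccgc
Ndufb7, GABPA, chr8:83566728-83566754, plus strand: cctagatgacCCGGAAGacactgaagg
Uqcrh, GABPA, chr4:116075064-116075090, minus strand: gtatgccgcaCTTCCGGccaggtcgcc
Cox8a, GABPA, chr19:7217605-7217631, minus strand: ttccgaaataCTTCCGGctcgggcgtc
Atp5md, GABPA, chr19:47090629-47090655, minus strand: gagggggcgtCTTCCGGtcgggccgag
Ndufs7, YY1, chr10:80249463-80249491, plus strand: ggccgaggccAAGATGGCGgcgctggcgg

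The differences from control of genes with and without such letters are given side by side, without a test. The 18 with NRF1 letters had median log2 fold changes of -0.04 after 1 h, -0.04 after 4 h and -0.12 after 8 h, and the 46 without had -0.02, 0.00 and -0.08. The 15 with GABPA letters had -0.02, 0.03 and -0.08, and the 49 without had -0.02, -0.05 and -0.10. The 7 with YY1 letters had -0.05, -0.05 and -0.11, and the 57 without had -0.02, -0.01 and -0.10. Below the control at 1, 4 and 8 h were 7, 6 and 5 of the 7 with YY1 letters and 36, 30 and 46 of the 57 without. For NRF1 letters the counts were 14, 13 and 16 of the 18 with and 29, 23 and 35 of the 46 without. For GABPA letters they were 10, 7 and 11 of the 15 with and 33, 29 and 40 of the 49 without.

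Of 15 regulators of mitochondrial gene expression, 0 passed the adjusted edgeR test at any time, and an unadjusted p under 0.05 was reached by 0 at 1 h, 1 at 4 h (Nrf1) and 1 at 8 h (Gabpb1), where 2.42%, 11.6% and 4.51% of all genes tested reached it. Nrf1 itself was at 20.3 CPM in the control, 19.9 after 1 h, 38.2 and 32.1 after 4 h and 27.1 after 8 h, a log2 fold change of 0.79 at 4 h (SE 0.24) with an adjusted p of 0.358. Gabpb1, the partner of GABPA, was at 12.9, 13.4, 21.6, 17.4 and 24 CPM. The coactivator Ppargc1a was at 38, 36.9, 34.9, 28 and 29.5 CPM, and Esrra, a nuclear receptor that works with it, at 38, 39.1, 34.4, 34.7 and 27.2 CPM. Both 4 h libraries were above the control for Nrf1 and Gabpb1 and below it for Ppargc1a and Esrra. Over all 15, both were below the control for 9 (60%, against 38.3% of all genes tested) and above it for 5.

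The partners of the nuclear subunits gave 0 calls as well with edgeR and DESeq2. An unadjusted edgeR p under 0.05 was reached by 1 mitochondrially encoded subunit (mt-Nd6 at 8 h) and 2 assembly factors (Ttc19 and Tmem126b at 4 h), and by 0 genes of complex II. The 2 of 40 assembly factors (5%) compare with 11.6% of all genes at 4 h, and the 1 of 13 mitochondrially encoded subunits with 4.51% of all genes at 8 h. The 13 mitochondrially encoded subunits had median log2 fold changes of -0.06, 0.04 and -0.10 at 1, 4 and 8 h. Their most abundant transcript, mt-Co1, was at 7941 CPM in the control, 8104 after 1 h, 9374 and 8274 after 4 h and 7427 after 8 h, and the lowest log2 fold changes at 8 h were those of mt-Nd4l (-0.84) and mt-Nd6 (-0.72), the latter with 48.3, 34.2, 40.6, 47 and 29.3 CPM. The 4 genes of complex II, which the symbols of the rule leave out, had medians of -0.07, -0.08 and -0.12, with Sdha at 405, 391, 399, 413 and 391 CPM. Of the other respiratory chain proteins, Cycs, which encodes cytochrome c, was at 72.1, 75.5, 101, 88.8 and 75.9 CPM, and Cyc1, the cytochrome c1 of complex III, at 94.7, 94.7, 73.9, 87.6 and 82.5 CPM. Of 40 assembly factors tested, 18 (45%) were at least 1.25-fold from control at 4 h, 14 of them below and 4 above it, against 4 (5.19%) of the 77 subunits, 50.1% of all genes, 37.9% of genes of at least 20 CPM and 24.2% of the short ones among them. Assembly factors are less abundant, and 57.5% of their intervals lay within 2-fold. The most abundant of them, Ttc19, which acts on complex III, was at 106, 134, 186, 141 and 121 CPM, with an unadjusted edgeR p of 0.0356 at 4 h and an adjusted p of 0.402. Tmem126b, which acts on complex I, was at 36.8, 30.3, 23.2, 23.8 and 32.4 CPM. At 1 h, 32 of the 40 assembly factors were below the control, with a median of -0.13, against 50.9% of all genes tested.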

How the data were processed

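For each library, made with a stranded total RNA kit, the authors deposited raw counts of reads per gene. STAR 2.5.1b, HTSeq and the build GRCm38.p4 are named in the submitters' processing notes, and for the counting options and annotation release, the sources used here give nothing. Members, lists and tests were chosen with earlier results of these data known.

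All values were computed from the deposited counts, without the lines for reads on no gene (24.7% to 33.1%), ambiguous reads (1.26% to 1.52%) and reads mapped to several places (9.67% to 11.6%). Genes kept by filterByExpr were normalized by TMM (factors 0.924 to 1.06) and fitted with glmQLFit of edgeR 4.0.16 in R 4.3.3 with the 4 conditions as groups and 5 libraries. P-values were adjusted over all 19768 genes, with a threshold of 0.05. A prior count of 2 entered the log2 fold changes, and ratios between single libraries have an offset of 0.1 CPM. P-values measure the spread between the 4 h libraries, which may be technical. Positions and transcripts came from GENCODE M21, where 55144 of 55385 identifiers were found, and main transcripts were the APPRIS principal ones. Levels per length assume that this transcript gave the reads. Members were named by their complex, except for genes not reported here, and values in each library are given for the most abundant, lowest and highest members of each complex at each time, isoform groups and members with extreme ratios between the 4 h libraries. Abundance was ranked by the length of the main transcript in place of the exon length planned. Alternatives were DESeq2 1.42.0, limma-voom 3.58.1, other scalings, filters and prior counts, and leaving out each 4 h library. The code was tested on simulated data. Figures were drawn with matplotlib 3.10.9.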

Additional observations from a re-analysis of the deposited data

How the results depend on the processing

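With 1 residual degree of freedom the number of calls over all genes depended on the method, and 0 of the 77 members were called under any of them (lowest adjusted p 0.432). At 1 h, 57 genes were called with library size alone, 56 with DESeq2, 285 without the filter and 1 with robust empirical Bayes, against 0. At 4 h, 237, 238 and 1300 genes were called with library size alone, DESeq2 and no filter, against 1. The count was 0 with relative log expression factors, limma-voom and the TMM factors from short abundant genes or from genes in the length range of the members. At 8 h the counts were 22 with library size alone, 33 with DESeq2 and 279 without the filter, against 0. For any time they were 0 with relative log expression factors, limma-voom and TMM factors from short abundant genes or from genes in the length range of the members, 303 with DESeq2, 338 with library size alone and 1761 without the filter, against 2. The cause was not tested. Of 130 recomputed medians, 120 moved by less than the spread between libraries. Leaving out 1 of the 4 h libraries was likely to stay under this limit by construction, because the spread was the standard deviation of the medians of these libraries. This spread was 0.093 for all members and 0.115, 0.098 and 0.104 for complexes I, III and V, larger than their medians, and 0.024 for complex IV. Outside complex IV the count therefore says little about stability. The small spread of complex IV includes its scarce genes, and its 11 genes of at least 20 CPM had medians of 0.05 and 0.12 in the 4 h replicates. With library size alone the median of all genes was -0.11 at 4 h and the members' 4 h medians were -0.133 for all 77, -0.169 for complex I, -0.136 for complex III, -0.11 for complex IV and -0.043 for complex V, and complex IV was at -0.123 at 1 h. With TMM factors from short abundant genes, a setting added after seeing the data, complex IV was at -0.027 at 4 h, and the 8 h medians were -0.029 for all 77, -0.051 for complex I, -0.007 for complex III, -0.058 for complex IV and -0.011 for complex V, while the median of all genes was 0.06. Leaving out each 4 h library in turn gave 4 h medians from -0.073 to 0.058 for all members, -0.131 to 0.032 for complex I, -0.076 to 0.062 for complex III, 0.014 to 0.048 for complex IV and -0.035 to 0.112 for complex V, as values without a test. No paired analysis was possible because the groups share fewer than 2 replicate numbers.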

Other observations

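Neighbouring parts of energy metabolism were described by lists. The 16 genes of the citric acid cycle had median log2 fold changes of 0.00, 0.06 and -0.08 at 1, 4 and 8 h, and 0 of them were 1.25-fold from control at any time. Of all genes tested 34.3%, 50.1% and 40.8% were, and of genes of at least 20 CPM 11%, 37.9% and 22.1%. The 17 glycolytic genes had medians of -0.01, 0.00 and -0.08, with Aldoa, an aldolase, at 1605 CPM in the control, 1650 after 1 h, 1662 and 1713 after 4 h and 1619 after 8 h. The phosphofructokinases gave different values, Pfkp with 301, 322, 459, 387 and 368 CPM and Pfkl with 268, 264, 165, 224 and 365 CPM, and for Pfkl the libraries at 4 h and 8 h lay on opposite sides of the control. The 77 mitochondrial ribosomal proteins had medians of -0.14, -0.04 and 0.02, and the 81 cytosolic ones 0.04, 0.11 and -0.01, with 65 of the latter above the control in both 4 h libraries (80.2%, against 38.1% of all genes tested, 43.1% of genes of at least 20 CPM and 47.1% of the short ones among them). No gene of these lists passed the adjusted edgeR or DESeq2 test, and 1 had an unadjusted edgeR p under 0.05 (Pfkp at 4 h, 0.0411). Of all genes tested, 2.42%, 11.6% and 4.51% had such a p at 1, 4 and 8 h. The adjusted edgeR test called at most 0.00506% of them at a single time, so the absence of calls says little about these lists.

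Among 14 carriers and porins, Slc25a3, the carrier that supplies ATP synthase with phosphate, was at 266 CPM in the control, 517 after 1 h, 453 and 373 after 4 h and 314 after 8 h. Its log2 fold change was 0.96 at 1 h (SE 0.22), with an unadjusted edgeR p of 0.00584 and an adjusted p of 1, and 0.63 at 4 h with an adjusted p of 0.358. The highest library was that at 1 h, and all treated libraries were above the control. No oxidative phosphorylation gene came near this size at 1 h in the upward direction, where the highest was Ndufb6 with 0.18. Slc25a4, the ADP and ATP carrier, was at 493, 508, 536, 558 and 453 CPM.

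Ndufb1-ps, left out for its name, had 936 counts in the control, 840 after 1 h, 854 and 1078 after 4 h and 896 after 8 h, more than several members of complex I.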
